A study of Mus musculus with 6 samples.

Results

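The counts of 10 genes that set the pace of the G1 phase were followed in mouse melanoma tumours. They were the D-type cyclins Ccnd1, Ccnd2 and Ccnd3, their kinases Cdk4 and Cdk6, the inhibitors Cdkn2a, Cdkn2b, Cdkn1a and Cdkn1b, and the pocket protein gene Rb1. The genes were listed by name and matched by GENCODE symbol to the deposited tables, which gave all 10 of them among 53801 annotated genes. The tumours grew under the skin of wild type C57BL/6 mice, stated as male and 10 to 12 weeks old, from injected B16-F10 cells, a skin melanoma line derived from this strain. In the SEVO group (n = 3) B16-F10 cells were primed with 2% sevoflurane, a volatile anaesthetic, before the injection. It was flushed into a closed chamber for 30 min and left to act for another 2 h. The paper's methods and a figure legend give different times from this exposure to the injection. In the CTRL group (n = 3) the injected cells had not been primed. RNA was taken from pieces of whole tumour, so host cells were part of each sample. Fresh cells were thawed for every group, so a thawed stock and the priming cannot be told apart. The comparison asked whether a brief exposure of the cells left a trace in the RNA of the tumour that later grew from them. In the labels the source is tumour, whereas the cell type is entered as monocytes. The summed counts of 11 melanocyte markers were 1340 to 1374 CPM (counts per 1e6 reads on a common library size) in CTRL and 652 to 1779 CPM in SEVO tumours, against 212 to 281 and 229 to 322 CPM for 13 macrophage and monocyte markers, and no marker of either list was at 0 over all tumours. The SEVO range of the melanocyte list lay on both sides of the CTRL range, and all 9 of its tested members had lower estimates in SEVO. Lower estimates were common among all protein-coding genes tested. They made up 79.6% of those with no exon base opposite another gene and 50.8% of those with some. The part of cell composition in the results below was not tested.

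D-type cyclins bind Cdk4 or Cdk6 in response to growth signals, and the active kinases phosphorylate the retinoblastoma protein encoded by Rb1, which then releases E2F factors that switch on genes for DNA replication. The INK4 proteins of Cdkn2a and Cdkn2b block Cdk4 and Cdk6 directly, while the CIP/KIP proteins of Cdkn1a and Cdkn1b bind whole cyclin and kinase complexes. Cdkn2a also encodes p19Arf from a separate first exon, a protein that stabilises p53, and loss of this locus is a frequent event in melanoma. B16-F10 has been reported to lack the Cdkn2a locus.

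The counted reads on genes numbered 723431 to 1348676 per tumour, 2.06% to 4.61% of the uniquely aligned reads. The predicted genes Gm10800 and Gm10801 took 1.31% of the counted reads in CTRL tumour 2 and 49.0% in CTRL tumour 1, with the SEVO tumours between these extremes. A background was measured over 1403 receptor genes for smell, pheromones and trace amines, which are rarely expressed outside sensory tissue and are called silent genes here. Their reads per kb of exon were 1.31, 0.0783 and 0.599 in CTRL tumours 1 to 3 and 0.187, 0.214 and 0.399 in SEVO tumours 1 to 3. The highest and the lowest background thus both belonged to CTRL tumours. Gapdh, a glycolysis gene that nearly all cells use heavily, had only 17 to 42 reads per tumour. Summed over the tumours, its reads were 13.2 times those expected from the density of silent genes. Among other abundant genes the multiples were 130 for Actb, 89.0 for Eef1a1, 30.7 for Vim and 29.4 for Rplp0. They were 5.43 for Tpt1, 4.93 for Ubb and 1.92 for Tuba1b, which had 10 reads in all. Of 13 mitochondrial protein genes, 6 were listed at 0 in every tumour, mt-Co2 and mt-Co3 among them. The others had 1802 to 9865 reads each, summed over the tumours. An entry of 0 in these tables was therefore not in itself a measure of absent RNA. The strand setting of the counting is not given in the sources used here, so reads of a gene and of a gene on the opposite strand cannot be told apart where their exons overlap. The reads set aside as ambiguous were 3838 to 6114 per tumour.

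Promoter windows of RefSeq on GRCm38.p6, from 250 bases before to 50 bases after a transcript start, were found for 7 of the 10 genes. Those of Cdkn2a and Cdkn2b are shown because the reported loss concerns this stretch of chromosome 4, and that of Cdk4 because it was the best counted of the genes. Capitals mark the GC box GGGCGG on either strand and the E-box CACGTG, which reads alike on both strands. Neighbouring GC boxes may overlap by a base.
Cdkn2a, start of the p19Arf transcript, chr4:89294570-89294869, minus strand: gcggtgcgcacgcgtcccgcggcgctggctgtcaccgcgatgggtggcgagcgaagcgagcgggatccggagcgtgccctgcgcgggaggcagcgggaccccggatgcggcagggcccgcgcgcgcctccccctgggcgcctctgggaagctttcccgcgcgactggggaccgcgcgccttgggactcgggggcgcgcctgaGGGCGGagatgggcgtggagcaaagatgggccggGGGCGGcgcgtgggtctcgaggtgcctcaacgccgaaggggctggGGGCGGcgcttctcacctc
Cdkn2a, start of the p16Ink4a transcript, chr4:89282143-89282442, minus strand: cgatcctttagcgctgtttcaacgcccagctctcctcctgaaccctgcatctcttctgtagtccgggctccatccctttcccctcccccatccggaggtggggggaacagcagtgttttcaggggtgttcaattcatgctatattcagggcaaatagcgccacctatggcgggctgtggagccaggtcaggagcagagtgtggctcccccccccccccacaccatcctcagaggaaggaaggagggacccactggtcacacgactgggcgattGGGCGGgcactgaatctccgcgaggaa
Cdkn2b, chr4:89310983-89311282, minus strand: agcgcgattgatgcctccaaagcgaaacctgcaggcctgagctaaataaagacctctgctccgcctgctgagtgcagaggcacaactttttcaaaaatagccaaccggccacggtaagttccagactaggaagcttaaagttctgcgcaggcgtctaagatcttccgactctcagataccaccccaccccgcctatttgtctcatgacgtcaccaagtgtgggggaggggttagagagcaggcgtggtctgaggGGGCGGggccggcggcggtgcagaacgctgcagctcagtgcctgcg
Cdk4, chr10:127063285-127063584, plus strand: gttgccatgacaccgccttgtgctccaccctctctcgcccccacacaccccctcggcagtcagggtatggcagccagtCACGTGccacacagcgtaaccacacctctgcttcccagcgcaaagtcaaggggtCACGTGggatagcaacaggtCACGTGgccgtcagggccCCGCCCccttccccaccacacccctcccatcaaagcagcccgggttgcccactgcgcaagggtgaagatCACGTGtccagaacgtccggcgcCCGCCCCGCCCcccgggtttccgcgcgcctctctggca
The p19Arf window held 3 GC boxes and the p16Ink4a and Cdkn2b windows 1 each, with no E-box in any of them. The Cdk4 window held 3 GC boxes and 4 E-boxes. Over all 32851 promoter windows of the same length, 35.7% held a GC box and 7.15% an E-box. The letters describe the windows and say nothing of a bound factor.

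Cdk4 was counted far above the other genes, and Cdkn2a and Cdkn2b lay at or next to 0. On the scale of CPM per kb of exon, the levels averaged over the 6 tumours (± SD) were 220 ± 70.5 for Cdk4, 10.4 ± 2.53 for Rb1, 10.3 ± 0.940 for Ccnd1, 5.39 ± 2.56 for Cdkn1b, 4.37 ± 2.18 for Ccnd2, 3.90 ± 0.826 for Ccnd3, 1.55 ± 1.82 for Cdkn1a and 1.45 ± 1.43 for Cdk6. The level of Cdk4 was 21.2 times that of Rb1, and its lowest tumour (107.6) stood above the highest of Rb1 (14.2). Every other pair of neighbours in this order overlapped over the tumours, and Rb1 and Ccnd1, Ccnd2 and Ccnd3, or Cdkn1a and Cdk6 changed places when the scaling was changed or a tumour was left out. On the same scale the level of Gapdh was 7.05 ± 2.46, below Rb1 and Ccnd1, and that of Actb, the cytoskeletal actin gene, 70.0 ± 29.5, below Cdk4.

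No difference of a G1 gene between CTRL and SEVO tumours passed a threshold. Of the 10 genes, 7 passed the filter on low counts of edgeR, and 0 of these 7 were called at an unadjusted p under 0.02 with a fold of at least 1.5, where the background of all genes tested was 1.04% (79 of 7561 genes, with 0.106% higher and 0.939% lower in SEVO). At an adjusted p under 0.05, 0 genes of the whole table were called by edgeR and 0 by DESeq2. An unadjusted p under 0.05 was reached by 330 of 7561 genes (4.36%) in edgeR. In DESeq2, run with no filter on low counts, it was reached by 265 of 42422 genes (0.625%), so the shares are not on a like set. No G1 gene was among these in either tool. The groups overlapped in CPM for all 7 genes tested, while they did not overlap for 8.56% of all genes tested. They overlapped as well for the genes below the filter. Of these, Cdkn2a and Cdkn2b, with 0 and 1 read in all, could not have come out apart. Of the 7 tested, 2 had a higher and 5 a lower estimate in SEVO, with a median log2 fold change of -0.16 beside -0.02 over all genes tested. With 3 tumours against 3 an exact two-sided permutation test cannot go below p = 0.1. In whole tumour RNA, fewer cells of a type and less RNA per cell cannot be told apart.

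**Figure D1:**
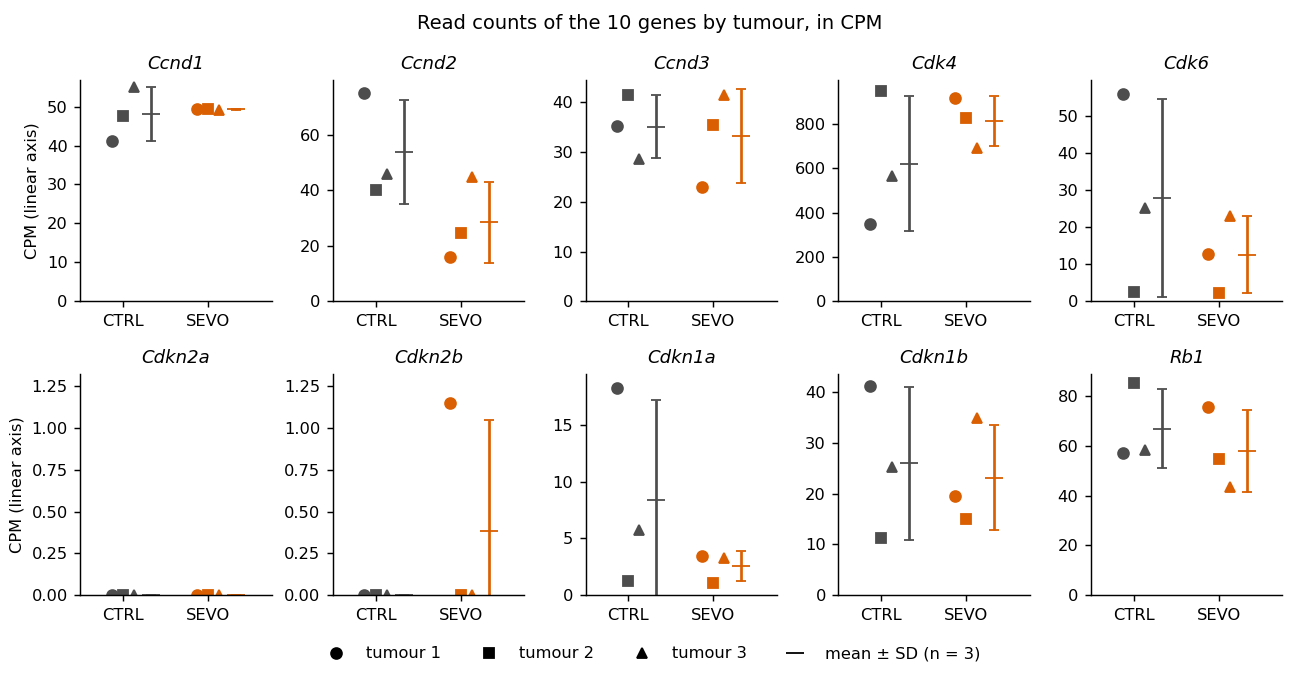
Each panel plots 1 gene, with CPM on a linear vertical axis from 0 and the 3 CTRL (grey) and 3 SEVO (orange) tumours as points; the bar beside each group is the mean ± SD (n = 3), drawn from 0 where it would reach below. The groups overlap in every panel, Cdkn2a is at 0 in all tumours, and Cdkn2b has its only read in SEVO tumour 1.

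Ccnd1, the cyclin D1 gene and a common target of growth factor signalling, was the steadiest of the genes. It had 34, 38 and 48 reads in CTRL tumours 1 to 3 and 43, 46 and 45 reads in SEVO tumours 1 to 3. The SEVO tumours lay close together within the CTRL range. The counts came to 48.0 ± 6.91 vs. 49.3 ± 0.192 CPM (CTRL vs. SEVO, SD, n = 3), with a log2 fold change of 0.04 (SE 0.32, edgeR adjusted p = 0.964). The gene lies at chr7:144929931-144939925 on the minus strand, and LTO1, on the other strand, covers 1100 of its 4709 exon bases. LTO1 had 409 to 1109 reads per tumour and a level 14.0 times that of Ccnd1.

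Ccnd2, which encodes cyclin D2, showed the lowest unadjusted p of the list. It had 62, 32 and 40 reads in CTRL and 14, 23 and 41 reads in SEVO tumours 1 to 3. SEVO tumours 1 and 2 lay below all CTRL tumours in CPM, and SEVO tumour 3 lay within their range. The means were 53.8 ± 18.8 vs. 28.5 ± 14.7 CPM (CTRL vs. SEVO, SD, n = 3), and the log2 fold change was -0.91 (SE 0.43, edgeR p = 0.0557, adjusted p = 0.741, exact permutation p = 0.2). Without SEVO tumour 3 the value was -1.34 with an unadjusted edgeR p of 0.0111, past the unadjusted threshold, and an adjusted p of 0.329. In that fit 479 of 8383 genes passed the unadjusted threshold. The log2 fold change of Ccnd2 was -0.55 without SEVO tumour 1 and -0.59 without CTRL tumour 1. The gene lies at chr6:127125162-127152193 on the minus strand. An antisense gene, Gm43126, shares 372 of its own 429 exon bases with Ccnd2 on the other strand, and with 239 to 612 reads per tumour its level was 275 times that of Ccnd2. Gm43126 had a log2 fold change of 0.48 (SE 0.41, edgeR adjusted p = 0.752), of the opposite sign to that of Ccnd2. A further antisense gene, 9330179D12Rik, overlaps 368 exon bases of Ccnd2 and had 120 reads in all.

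Ccnd3 encodes cyclin D3, the form best known from blood and lymphoid cells. It had 29, 33 and 25 reads in CTRL and 20, 33 and 38 reads in SEVO tumours 1 to 3, and the SEVO tumours spread to both sides of the CTRL range in CPM. The means were 35.1 ± 6.35 vs. 33.3 ± 9.40 CPM (CTRL vs. SEVO, SD, n = 3), with a log2 fold change of -0.07 (SE 0.38, edgeR adjusted p = 0.942). At chr17:47505051-47599691 on the plus strand, its last exon bases overlap those of Bysl by 361 bases, and Bysl, a ribosome assembly gene, had a level 23.1 times that of Ccnd3.

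Cdk4, the kinase partner of the D cyclins, had 288, 755 and 492 reads in CTRL and 796, 769 and 635 reads in SEVO tumours 1 to 3. In CPM the highest tumour of all was CTRL tumour 2 and the lowest were CTRL tumours 1 and 3, so that the SEVO tumours fell inside the CTRL range. The means were 620 ± 303 vs. 811 ± 112 CPM (CTRL vs. SEVO, SD, n = 3), and the log2 fold change was 0.39 (SE 0.44, edgeR adjusted p = 0.788). It ranged from 0.10 to 0.96 when a tumour was left out, the highest being without CTRL tumour 2. The gene lies at chr10:127063534-127067920 on the plus strand and shares 641 of its 3249 exon bases with Tspan31 on the minus strand, a tetraspanin gene. Here the partner was the less counted of the pair, at 0.271 times the level of Cdk4. Over the 6 tumours the log2 CPM of Cdk4 was followed most closely by Chrnb2, Gm38331 and Ccdc38 among 7560 other genes, each with r = 0.999. These points share 6 libraries and their scaling, and each of the 3 genes also has exon bases opposite another gene.

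Cdk6, the other D cyclin kinase, was close to background. It had 46, 2 and 22 reads in CTRL and 11, 2 and 21 reads in SEVO tumours 1 to 3. The 3 tumours with the most reads, CTRL tumours 1 and 3 and SEVO tumour 3, were those with the densest silent genes. The means were 27.9 ± 26.8 vs. 12.6 ± 10.4 CPM (CTRL vs. SEVO, SD, n = 3), with a log2 fold change of -1.14 (SE 0.86, edgeR p = 0.207, edgeR adjusted p = 0.744, exact permutation p = 0.4). The estimate turned to 0.50 (SE 0.65) when the silent gene density of each tumour entered the model. It was -1.53 without CTRL tumour 2, past the unadjusted threshold at an edgeR p of 0.0138 but with an adjusted p of 0.112. In that fit 1449 of 8961 genes passed the unadjusted threshold. Without CTRL tumour 1 the estimate for Cdk6 was -0.16. The gene spans chr5:3341485-3531008 on the plus strand, and the antisense gene Gm17590, which overlaps 368 of its 13989 exon bases, had a level 16.7 times that of Cdk6.

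**Figure D2:**
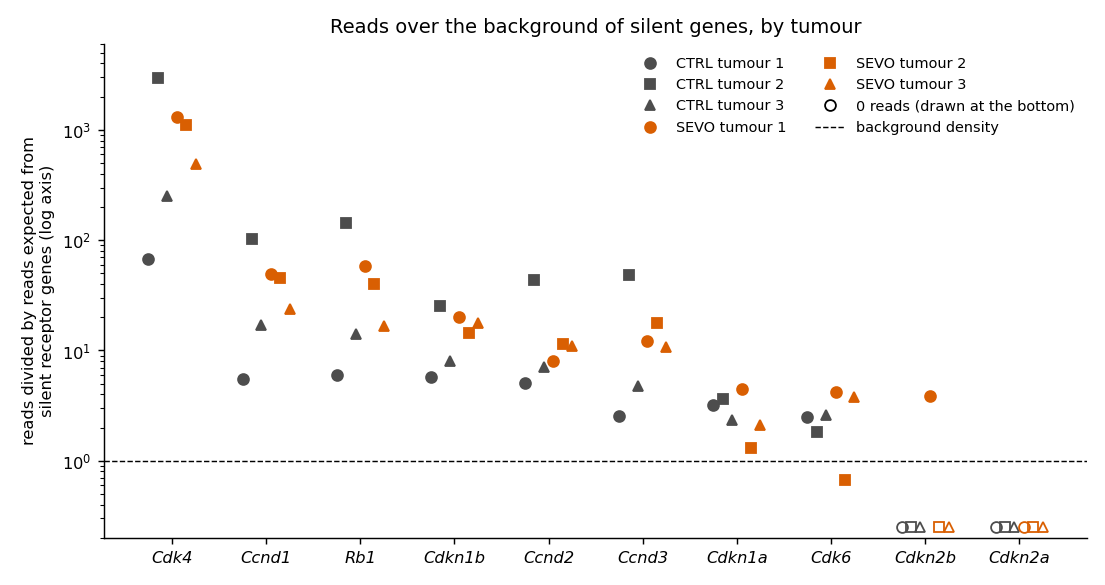
The vertical axis (log scale) gives the reads of each gene in each tumour divided by the reads that the silent gene density of that tumour gives over the same exon length; grey symbols are CTRL and orange symbols SEVO tumours, open symbols mark 0 reads, and the dashed line is the background. Cdk4 lies 67.8 to 2969 times above the line, Cdkn1a and Cdk6 lie near it, and Cdkn2b and Cdkn2a have 1 and 0 reads.

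The reads of Cdkn2a and Cdkn2b were set against this background. Over the 6 tumours Cdkn2a, whose annotated span is chr4:89274471-89294653 on the minus strand, was listed at 0 reads in each tumour, where the silent gene density gave 3.26 reads over its 1172 exon bases. The upper end of the exact 95% Poisson interval was 1.13 times the background, so the interval included the background at this depth. Among the silent genes, which are longer with a median of 3.08 kb of exon, 6.70% also had 0 reads in all tumours. Cdkn2b, at chr4:89306299-89311039 on the same strand, had 1 read, in SEVO tumour 1, where 3.87 were expected over 1390 bases. Its ratio to background was 0.258 (95% Poisson interval 0.00654 to 1.44), and 14.5% of the silent genes were as sparse or sparser. Both genes together had 1 read for 7.13 expected, a ratio of 0.140 with an upper bound of 0.781. That bound lies under the background of the full set of silent genes, the only reference used for the pair. The intervals cover counting error only, and the silent genes themselves varied, with a median of 2.59 and a 95th percentile of 6.95 reads per kb summed over the tumours. No fold between CTRL and SEVO is given for either gene, since both groups lay at or under 3 reads.

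The background near Cdkn2a depended on which silent genes were used. Silent genes on chromosome 4 alone gave 4.39 expected reads for Cdkn2a, with an upper bound of 0.841 times background. Olfactory receptor genes alone gave 3.93 reads and a bound of 0.939, whereas vomeronasal receptor genes alone gave 1.77 reads and a bound of 2.08. The bound for Cdkn2a thus fell on either side of the background with the choice of reference. That for Cdkn2b lay above the background with each of these references, at 1.07, 1.20 and 2.65 in the same order. The sum of both genes was not set against these references.

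Genes around the locus did have reads. The annotation holds 66 other genes reaching within 1 Mb of Cdkn2a, with 4446 reads where 239 were expected, of which Gm26566 and Hacd4 held 3677. Of the 66 genes, 47 share no exon base with a gene on the other strand, and they had 409 reads for 122 expected, 3.35 times background. The pseudogene Gm12607 held 173 of these reads, and without it the ratio was 1.95. Of the 47 genes 26 were above the expected number and 11 at 0. The 17 protein-coding genes of this stretch with an Ifn symbol, interferon genes usually silent outside infection, had 61 reads for 35.4 expected (1.72 times). Of these reads 31 were on Ifna13, and the other 16 genes had 30 reads for 33.2 expected (0.905 times). Genes of the interferon cluster with other symbols were not in these sums. The 3 nearest annotated genes on the lower coordinate side were Gm12606, a long noncoding RNA gene 1.07 kb from Cdkn2a with 0 reads for 3.71 expected, the pseudogene Tgif2-ps1 at 56.7 kb with 5 reads for 1.99 expected, and the small nucleolar RNA gene Gm26490 at 91.4 kb with 13 reads for 0.390 expected. On the higher side they were Cdkn2b at 11.6 kb, Gm12609 at 87.3 kb with 5 reads for 1.70 expected, and Gm12610 at 127 kb with 3 reads for 1.62 expected. The next genes on either side of Gm12606, Cdkn2a and Cdkn2b thus lay above the expected number, with 3 to 13 reads in all. The 3 genes of this stretch, Gm12606, Cdkn2a and Cdkn2b, had 1 read together for 10.8 expected (ratio 0.0923, 95% Poisson interval 0.00234 to 0.514), a grouping made after their values were seen. Farther off in the interferon cluster, the 9 neighbouring genes from Gm26525 to Gm13287 had 2 reads for 33.4 expected. This run was likewise picked after its values were seen. Several of its genes have the same exon length of 0.549 kb, and only uniquely mapped reads were counted. How common such gaps are was not tested. Past the 3 nearest genes, Gm12608 had 3 reads for 4.78 expected. Mtap, a methionine salvage gene 93.4 kb from Cdkn2a that is often lost along with it in human tumours, had 58 reads for 8.98 expected. Gm12607 lies within the span of Mtap on the other strand, without a shared exon base. Counts of RNA do not measure the copy number of DNA, which was not tested.

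**Figure D3:**
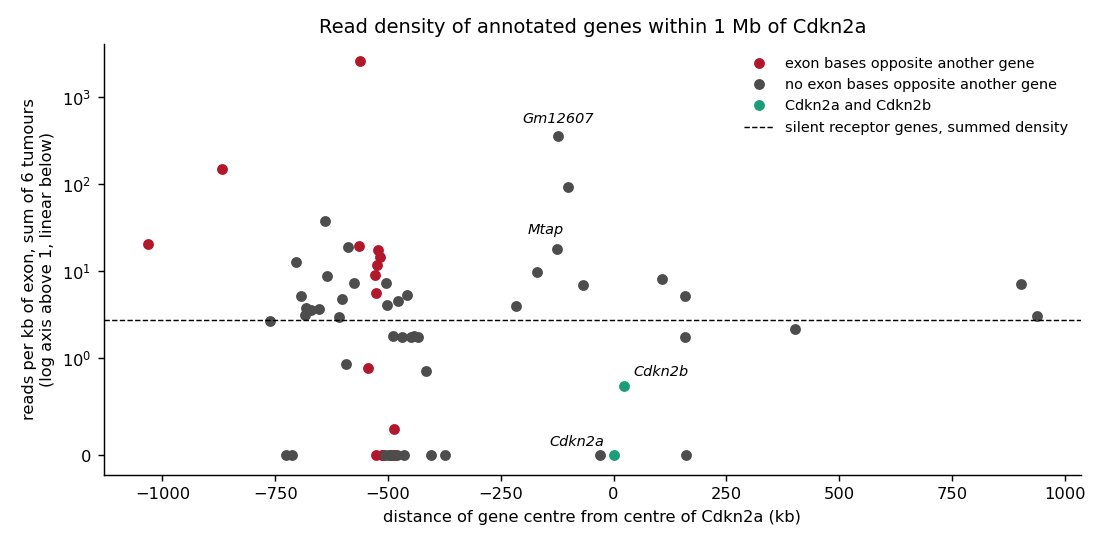
Each point is an annotated gene reaching within 1 Mb of Cdkn2a, placed by the distance of its centre in kb (horizontal axis) and its reads per kb of exon summed over 6 tumours (vertical axis, log scale above 1 and linear below); red points share exon bases with a gene on the other strand, and the dashed line is the silent gene density. Cdkn2a (0) and Cdkn2b (0.719) lie below the line with Gm12606 (0), while Mtap (18.0) and the pseudogene Gm12607 (350.9) lie above it.

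Cdkn1a encodes p21, the inhibitor that p53 induces after DNA damage. It had 15, 1 and 5 reads in CTRL and 3, 1 and 3 reads in SEVO tumours 1 to 3, too few for the filter on low counts. CTRL tumour 1, the tumour with the densest silent genes, held most of the reads. The counts came to 8.40 ± 8.79 vs. 2.60 ± 1.32 CPM (CTRL vs. SEVO, SD, n = 3). In a fit with no filter the log2 fold change was -0.93 (SE 0.98, edgeR adjusted p = 0.793), where the median of all genes was itself -0.38 and 0.627% of 42423 genes passed the unadjusted threshold. The estimate was -0.082 with the silent gene density in the model, -0.23 without CTRL tumour 1 and -1.86 when scaled to uniquely aligned reads. Its 28 reads were 2.83 times the 9.89 expected from background, and 3.42% of the silent genes were at least as dense. The corresponding values for Cdk6 were 104 reads, 2.67 times background and 3.99%. Cdkn1a lies at chr17:29090976-29100727 on the plus strand, with 273 exon bases opposite AC167363.2, which was not analysed here.

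Cdkn1b encodes p27, the inhibitor that holds resting cells in G1, and it shares no exon base with a gene on the opposite strand. At chr6:134920401-134925513 on the plus strand it had 34, 9 and 22 reads in CTRL and 17, 14 and 32 reads in SEVO tumours 1 to 3. The tumours with more reads were again CTRL tumours 1 and 3 and SEVO tumour 3. The means were 25.9 ± 15.0 vs. 23.2 ± 10.4 CPM (CTRL vs. SEVO, SD, n = 3), with a log2 fold change of -0.16 (SE 0.53, edgeR adjusted p = 0.906), which turned to 0.44 (SE 0.41) with the silent gene density in the model. Its 128 reads were 10.1 times background.

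Rb1 had 47, 68 and 51 reads in CTRL and 66, 51 and 40 reads in SEVO tumours 1 to 3. The lowest CPM was that of SEVO tumour 3 and the highest that of CTRL tumour 2. The means were 67.0 ± 15.9 vs. 58.1 ± 16.4 CPM (CTRL vs. SEVO, SD, n = 3), with a log2 fold change of -0.21 (SE 0.34, edgeR adjusted p = 0.831). The gene spans chr14:73183673-73325822 on the minus strand. Lpar6, a receptor gene that lies within an intron of Rb1 on the other strand, overlaps 408 annotated exon bases of it at 1.60 times its level, and Rcbtb2 overlaps 488 bases at 0.397 times its level.

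**Figure D4:**
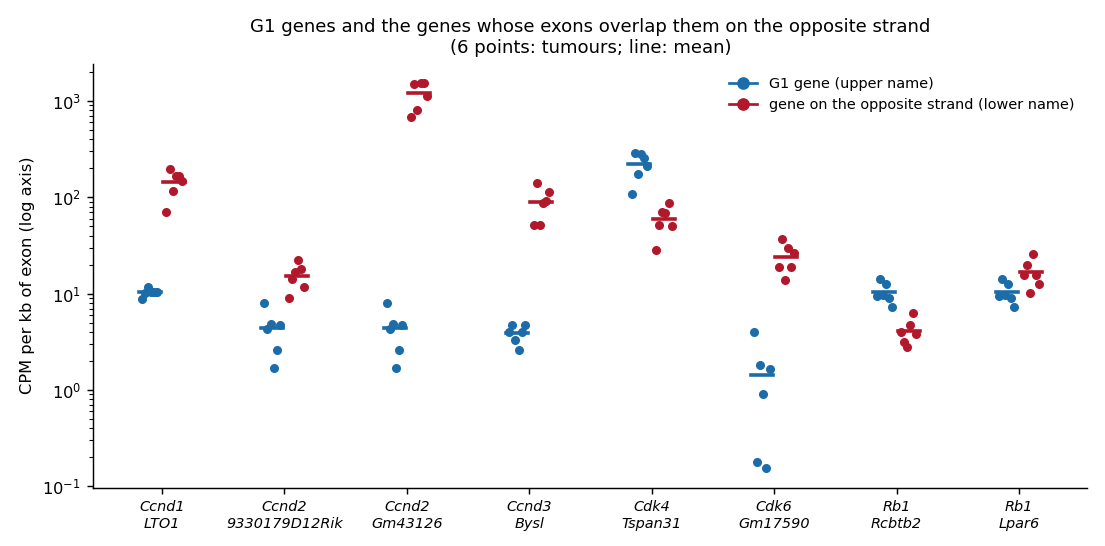
Pairs of a G1 gene (blue) and a gene whose exons overlap it on the opposite strand (red), with CPM per kb of exon on a log axis; points are the 6 tumours and lines their mean. The opposite gene is the higher of the pair in all pairs except Cdk4 with Tspan31 and Rb1 with Rcbtb2, and Gm43126 stands 275 times above Ccnd2.

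Overlap with a gene on the other strand went along with the depth of counting across the table. Protein-coding genes with such exon bases had a median of 11.0 reads per kb summed over the tumours (5277 genes), and those with none had 5.51 (16690 genes). Of the 10 G1 genes, the 7 with such bases had a median of 22.5 reads per kb, and the other 3, Cdkn1b, Cdkn2a and Cdkn2b, had 28.1, 0 and 0.719. No opposite gene was called, and the part of the overlap in any level was not tested.

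**Figure D5:**
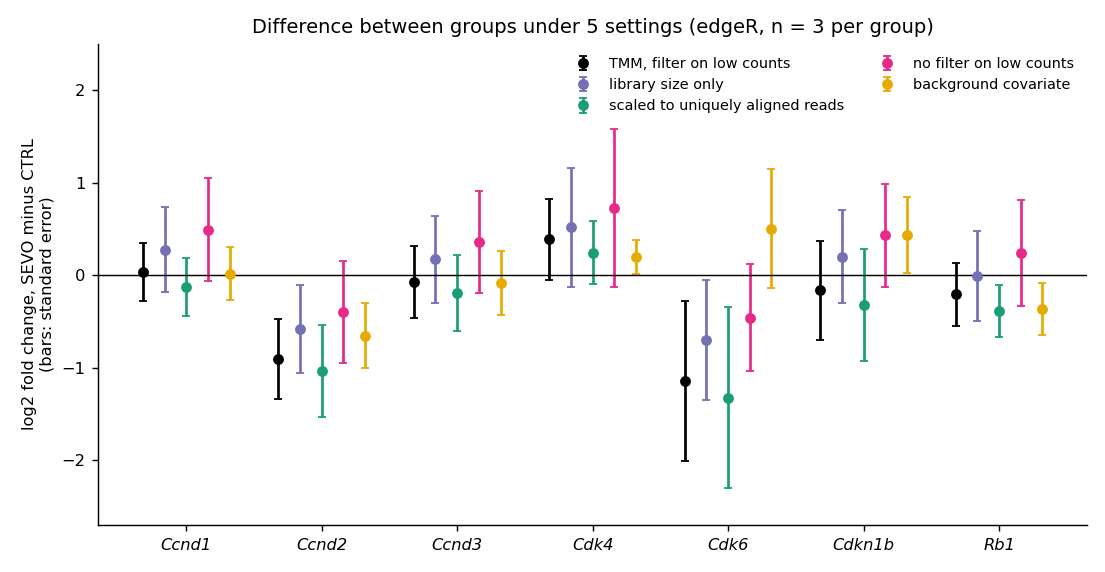
The vertical axis gives the log2 fold change of the 7 tested genes, SEVO minus CTRL, with standard errors as bars (edgeR, n = 3 per group), under 5 settings shown by colour. Ccnd2 lies below 0 and Cdk4 above 0 in all 5, and Ccnd1, Ccnd3, Cdk6, Cdkn1b and Rb1 lie on both sides. With no filter the median of all genes was itself -0.38, close to the -0.40 of Ccnd2. With library size only that median was 0.22.

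The rest of the G1 pathway was read from 72 further genes in 7 lists, of which 29 passed the filter. Rrm1, lower in SEVO, was the only one past the unadjusted threshold, beside 79 of 7561 genes tested (1.04%, with 0.939% lower). Of the 29, 8 had a higher and 21 a lower estimate in SEVO. Their median log2 fold change was -0.58, beside -0.02 over all genes tested. The number past the threshold was 0 without CTRL tumour 1, SEVO tumour 1 or SEVO tumour 2, 3 without SEVO tumour 3 and 5 without CTRL tumour 2. Over all genes tested, 479 of 8383 passed it without SEVO tumour 3 and 1449 of 8961 without CTRL tumour 2. It was passed by 28 of 8091 without CTRL tumour 1, 13 of 9030 without SEVO tumour 1 and 14 of 8960 without SEVO tumour 2. The direction split with the overlap. All 17 tested genes with no exon base opposite another gene were lower (median -0.72), and of the 12 with such bases 8 were higher (median 0.15). The split also ran through all protein-coding genes tested, of which 79.6% of those with no such base (2752 genes, median -0.60) and 50.8% of those with some (2479 genes, median -0.01) were lower. With the silent gene density in the model, 14 of the 17 and 60.9% of the 2752 were lower. The groups did not overlap for 5 of the 29, beside 8.56% of all genes tested. These were Cdk2, Skp2, Bmi1, Mcm3 and Rrm1, all lower in SEVO and 4 of them among the genes with no overlap.

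Rrm1, the large subunit of ribonucleotide reductase and a target of E2F, had 58, 20 and 33 reads in CTRL and 12, 11 and 20 reads in SEVO tumours 1 to 3. The lowest CTRL tumour stood above the highest SEVO tumour in CPM. The means were 44.5 ± 23.4 vs. 15.8 ± 5.30 CPM (CTRL vs. SEVO, SD, n = 3), and the log2 fold change was -1.48 (SE 0.48, edgeR p = 0.00863, adjusted p = 0.741, exact permutation p = 0.1). Tk1, an E2F target of thymidine salvage named for its depth, had a log2 fold change of -0.05 (SE 0.34). Of the 18 E2F targets 10 were tested, with 2 higher, 8 lower and a median of -0.47.

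Ccna2 and Ccne2, the cyclins A2 and E2 that drive Cdk2 after the D cyclins have acted, were the best counted of their list. Ccna2 had 121, 439 and 237 reads in CTRL and 441, 469 and 215 reads in SEVO tumours 1 to 3, which gave a log2 fold change of 0.36 (SE 0.49, edgeR adjusted p = 0.804). That of Ccne2 was 0.26 (SE 0.39, adjusted p = 0.818). Both overlap a gene on the other strand, Exosc9 and Ints8 respectively. Of the pocket protein and E2F list, 3 of 12 genes were tested, among them E2f5 with a log2 fold change of 0.48 (SE 0.46) and the Rb1 relative Rbl2 with 0.14 (SE 0.33).

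Of the genes for kinase activation and ubiquitin ligases, 4 of 14 were tested, and Ccnh, the cyclin of the CDK-activating kinase, and Cul1, a ligase scaffold, had log2 fold changes of 0.16 (SE 0.43) and -0.24 (SE 0.37). Of the upstream regulators, 5 of 9 were tested, 4 of them lower, with values of 0.20 (SE 0.51) for Zbtb17, a partner of Myc, and -0.99 (SE 0.75) for Mdm4, an inhibitor of p53. All 3 tested p53 targets of 11 had lower estimates, with -0.96 (SE 0.61) for Zmat3 and -0.37 (SE 0.56) for Ccng1. None of these genes passed a threshold. The INK4 relatives Cdkn2c and Cdkn2d, which unlike Cdkn2a lie elsewhere than on the 1 Mb stretch described, had 33 and 17 reads in all and were not tested.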

How the data were processed

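The samples were 6 whole tumour RNA libraries, 3 CTRL and 3 SEVO, grouped by their labels, and the authors state that all were batch-processed. The authors checked reads with FastQC, removed ribosomal RNA with SortMeRNA, trimmed them with Trimmomatic 0.36, aligned them with STAR 2.6.0c to GRCm38.p6, used SAMtools 1.8.3 and counted them with HTSeq 0.9.1 on GENCODE release M17 (versions per the labels). The deposited files hold unnormalized counts of reads for each gene. Annotation and exon lengths came from GENCODE M21 on the same build, to which 53706 of 53801 genes matched. The authors thawed fresh B16-F10 cells for every group, so a thawed stock and the priming cannot be told apart, and p-values measure the spread between these tumours.

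The whole table was fitted in edgeR 4.0.16 (R 4.3.3; TMM, filterByExpr, quasi-likelihood test, no block), with Benjamini-Hochberg adjustment over 7561 genes and standard errors from the F statistic. A gene dropped by the filter was read from a fit of all 42423 genes with at least 1 read. CPM used the TMM library sizes. The thresholds were adjusted p under 0.05, and p under 0.02 with a fold of at least 1.5 as in the methods of the study. Groups were also compared by exact two-sided permutation tests of CPM (scipy 1.17.1) over 20 splits. Silent genes were protein-coding Olfr, Vmn1r, Vmn2r and Taar genes with no exon shared with a gene outside the list (1403 of 1481). Their summed reads per kb in each tumour, times a gene's exon length, gave its expected reads. The fit was also run on counts simulated around shared means with a common dispersion of 0.158. These held no background that differed between tumours, so the run did not test the fit under such differences.

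The G1 genes and all lists were chosen with earlier results of these data known. Named pathway genes were those past the unadjusted threshold or, where fewer than 2 of a list were, the 2 with the most reads, besides the 3 nearest neighbours of Cdkn2a on either side and the 3 genes most like Cdk4. For 1 named gene no values are reported here. The alternatives were other scalings, other filters on low counts, the Wald test of DESeq2 1.42.0, the replicate number as a block, the silent gene density as a covariate, other silent genes and leaving out each tumour. As a covariate, that density was the log2 of the silent gene reads per kb, scaled to the uniquely aligned reads of each tumour. Protein sequences were not used here. Tumour sizes and cell sorting data of the study were not analysed here.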

Additional observations from a re-analysis of the deposited data

How the results depend on the processing

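Over 117 alternative values of the log2 fold changes of 8 G1 genes, 0 passed an adjusted p of 0.05 (lowest 0.112) and 20 changed sign, while Ccnd2, Cdk4 and Cdkn1a changed sign in none. Ccnd1 became -0.13 when scaled to uniquely aligned reads, -0.15 with at least 10 reads in every tumour and -0.058 without CTRL tumour 1. With library size only, Ccnd3 became 0.17 and Cdkn1b 0.20. With no filter on low counts Ccnd3, Cdkn1b and Rb1 became 0.36, 0.43 and 0.24, and with DESeq2 0.20, 0.25 and 0.086. With the silent gene density as a covariate, Cdk6 became 0.50 and Cdkn1b 0.44. Over the fits that left out a tumour, the ranges were -0.058 to 0.20 for Ccnd1, -0.21 to 0.20 for Ccnd3, -0.53 to 0.33 for Cdkn1b (0.03 without SEVO tumour 1, 0.17 without SEVO tumour 2) and -0.39 to 0.15 for Rb1 (0.01 without SEVO tumour 3), and the reversals of Ccnd3 were 0.20 without CTRL tumour 2 and 0.19 without SEVO tumour 1. The median of all genes was -0.02 in the main fit and 0.22 with library size only. It was -0.23 with uniquely aligned reads, -0.38 with no filter and -0.55 in DESeq2. Estimates under these settings stand against those medians. Ccnd2 lay close to the median with no filter (-0.40) and in DESeq2 (-0.57), although its sign did not change. With library size only, the values of Ccnd3 and Cdkn1b lay below the median.

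Counts of calls moved more. The 79 genes past the unadjusted threshold became 52 with uniquely aligned reads, 266 with no filter and 49 with DESeq2, which also had no filter. They became 13 to 1449 when a tumour was left out. The highest was without CTRL tumour 2, and 479 came without SEVO tumour 3. Past the same unadjusted threshold, leaving out a tumour gave 0 to 1 of the G1 genes and 0 to 5 of the pathway genes, with 5 without CTRL tumour 2 and 3 without SEVO tumour 3. At an adjusted p under 0.05, leaving out a tumour gave 0 to 31 genes of the whole table. The pathway count past the unadjusted threshold was 0 with library size only, no filter or DESeq2 and 2 with the silent gene covariate. Over all genes tested, library size only gave 60 and the covariate 116. The split of the 79 calls into 8 higher and 71 lower became 100 and 166 with no filter and 26 and 23 in DESeq2. The ratio of Cdkn2b to background ranged from 0 to 0.487, the 0 being without SEVO tumour 1. Over the whole gene span in place of exons, the upper bound for Cdkn2a was 0.151 and for Cdkn2b 0.969, although reads were counted on exons only. The causes of these shifts were not tested. Same-numbered tumours were not paired by the labels, and their deviations correlated at -0.40, 0.32 and 0.09. With the replicate number as a block, 129 genes passed the unadjusted threshold (6 higher, 123 lower), 1 passed the adjusted one and 0 of the G1 genes did. Fewer than 50 reads per tumour for most of the G1 genes limit what could be detected.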

Other observations

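Markers of other cell types that a tumour piece can hold had lower summed CPM than the melanocyte markers in every tumour. In summed CPM, 7 endothelial markers took 13.8 to 222 in CTRL and 25.7 to 81.8 in SEVO tumours, 7 fibroblast markers 32.6 to 167.5 and 18.2 to 62.2, and 8 T and NK cell markers 8.78 to 98.3 and 29.0 to 30.5. The highest value of each of these lists was that of CTRL tumour 1. Erythroid markers, the globins among them, took 149 to 262 and 193 to 220, and over all 6 tumours keratinocyte and skeletal muscle markers took 1.25 to 47.3 and 1.15 to 42.5. Against the silent gene density, the reads of the melanocyte, erythroid and macrophage lists were 43.4, 69.8 and 11.8 times the expected number. Those of the T and NK cell, endothelial, fibroblast, keratinocyte and muscle lists were 3.78, 2.86, 2.10, 2.30 and 2.35 times. Cdkn1a and Cdk6 thus lay at multiples of the background similar in size to those of the latter lists.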
